A study of Mus musculus with 16 samples.

Results

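Trp53, the mouse gene for the tumor suppressor p53, and 9 genes that p53 is known to activate (Mdm2, Ccng1, Pmaip1, Bbc3, Bax, Trp53inp1, Zmat3, Phlda3 and Sesn2) were followed through differentiation of C2C12 muscle cells that carried or lacked Fam134b. They are 10 of the 31053 genes in the expression table. The group was chosen by 1 measured value, the difference of Pmaip1 between Fam134b knockout and wild-type myotubes, which was among the lowest of all genes, and by known ties to p53. Therefore, the knockout against wild-type comparison in myotubes is given below as a description, with no p for any gene of the group, and how many of them passed a threshold there is stated only as a count from which nothing is read. Pmaip1 is described without a test throughout, although the closing counts between genotypes in myoblasts include it.

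C2C12 is a mouse myoblast line that fuses into multinucleated myotubes in culture, and FAM134B is an endoplasmic reticulum membrane protein that acts as a receptor for the autophagy of that organelle. Messenger RNA was sequenced from wild-type (WT) myoblasts, WT myotubes, Fam134bKO myoblasts and Fam134bKO myotubes, with 4 samples in each of the 4 groups and 16 in all. Both stages were grown in the same serum-containing medium. The Fam134bKO cells were made with CRISPR-Cas9 delivered by a lentiviral guide vector. Each genotype is represented by 1 line, and the sources used here do not say whether the knockout is 1 clone or whether the WT cells carried Cas9 and went through the same selection, so the deletion and the history of the line cannot be told apart. The labels name the samples biological replicates and the methods call the study's replicates independent in general, but what separated these RNA samples (cultures, passages or days) is not given, so the p-values measure the spread between these samples, which may in part be technical.

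p53 is a transcription factor that is kept scarce by MDM2, the ubiquitin ligase that marks it for degradation, and that accumulates as a protein after DNA damage and other stresses. It binds pairs of a decamer in its target genes and activates programs of growth arrest, cell death, repair and altered metabolism, and because Mdm2 is itself a target, the pathway restrains itself. In muscle precursors the best known of these targets is Cdkn1a, which encodes the cell cycle inhibitor p21 and rises when myoblasts leave the cell cycle, whether or not p53 takes part. The activity of p53 is set largely at the protein level, so the messenger RNA of Trp53 is not a readout of it.

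The sequences below are promoter stretches in which a script found the p53 decamer, and they show what matches to its consensus look like in front of genes of this group. RefSeq promoter windows of 300 bases (250 before and 50 after the annotated start, build GRCm38.p6) were present for 7 of the 10 genes. The decamer consensus, which reads the same on both strands, was found in the windows of 4 of them, Bax, Mdm2, Ccng1 and Trp53, and in 8.36% of all 32851 windows. Cdkn1a is printed with them because a window of it held a pair of decamers separated by 12 bases. An arrangement of at most 13 bases between decamers occurred in 0.0731% of all windows. Another Cdkn1a window, chr17:29093519-29093818, held no decamer. Each stretch runs 5′ to 3′ along the strand of its gene, and capitals mark the decamer.
Bax, chr7:45467055-45467134, minus strand: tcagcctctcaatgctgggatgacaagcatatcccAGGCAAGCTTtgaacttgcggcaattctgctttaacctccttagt
Mdm2, chr10:117710900-117710979, minus strand: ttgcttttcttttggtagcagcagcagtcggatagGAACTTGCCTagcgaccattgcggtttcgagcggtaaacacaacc
Ccng1, chr11:40755427-40755506, minus strand: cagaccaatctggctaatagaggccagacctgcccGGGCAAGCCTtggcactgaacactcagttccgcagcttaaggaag
Trp53, chr11:69580249-69580328, plus strand: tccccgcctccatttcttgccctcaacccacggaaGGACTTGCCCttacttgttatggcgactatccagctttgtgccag
Cdkn1a, chr17:29090871-29090972, plus strand: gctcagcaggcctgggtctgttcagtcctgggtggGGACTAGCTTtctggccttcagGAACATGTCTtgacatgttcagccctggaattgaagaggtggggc
The decamer lay 191 bases upstream of the annotated start in Bax, 176 in Mdm2, 175 in Ccng1 and 65 in Trp53. In Ccng1 and in the printed window of Cdkn1a, the best stretch of 20 letters matched a pair of adjoining decamers at 19 letters. At least 19 were matched in 0.0883% of all windows. In Cdkn1a such a stretch takes in the second marked decamer and the unmarked letters after it. The windows of Bbc3, Phlda3 and Sesn2 held no decamer. These are matches of letters in short windows and not measured binding.

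The libraries held between 1484750 and 3287461 reads assigned to genes, and the shallow ones were Fam134bKO myotubes replicates 2 and 4, with 1790524 and 1484750 reads. Fam134bKO myotubes also varied most among themselves (root mean square deviation of 0.448 to 0.691 on the log2 scale, against 0.260 to 0.440 in the other 3 groups). Fam134b itself measured 207 ± 42.0 normalized counts in WT myoblasts and 27.5 ± 5.49 in Fam134bKO myoblasts (SD, n = 4), and 232 ± 61.6 against 41.8 ± 14.0 in myotubes. The summed level of 7 myotube markers ranged from 24855 to 37444 in WT myotubes and from 11221 to 15095 in Fam134bKO myotubes, and from 1572 to 2334 in WT myoblasts against 15.9 to 22.4 in Fam134bKO myoblasts. The summed level of 4 myoblast markers (Myod1, Myf5, Pax7 and Des) was also lower in the knockout, between 768 and 1128 in WT against 221 and 292 in Fam134bKO myoblasts and between 1663 and 2003 against 571 and 803 in myotubes. Of these, 3 were tested and 2 were lower in the knockout at each stage. The remaining tested marker passed at neither stage, and in myoblasts it lay higher in the knockout without overlap. Pax7, a defining gene of muscle stem cells, reached at most 5 reads in any sample. Of 12 markers of other lineages, the 3 endothelial ones (Pecam1, Cdh5 and Kdr) reached at most 2 reads in any sample. Ptprc, Epcam, Adipoq and Plin1 had 0 reads throughout and Cdh1 at most 3, while the leukocyte genes Csf1r and Cd68 reached 16 and 13 reads and the epithelial gene Krt8 reached 10. Cebpa, the third adipocyte marker, carried that list's whole level, from 62.7 to 78.4 in WT myoblasts and from 34.0 to 51.3 in Fam134bKO myotubes, and passed no test. Dividing cell markers moved with stage and genotype: 4 of 6 fell on differentiation in WT and 6 of 6 in Fam134bKO cells, 4 of 6 were lower in Fam134bKO than in WT myotubes, and their summed level lay between 3621 and 4373 in WT myoblasts, between 1969 and 3204 once these had differentiated, between 2788 and 4712 in Fam134bKO myoblasts and between 813 and 1311 in the myotubes made from them. The part of the unequal myotube and myoblast marker levels and of cell division in the results below was not tested.

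Differences are given between group means of log2(normalized count + 1), with a standard error (SE) and an adjusted p from limma, and a gene passed the test at an adjusted p under 0.05 over 10767 tested genes. All 10 genes were among those tested, although Pmaip1 reached the filter of 10 normalized counts in WT samples only and is therefore left out of the counts in this paragraph. On differentiation of WT cells, 2 of the other 9 genes passed, beside 23.0% of all genes, with Sesn2 higher and Trp53 lower in myotubes. On differentiation of Fam134bKO cells, 5 of 9 passed, beside 33.4% of all genes: Mdm2, Bbc3 and Zmat3 rose, and Trp53 and Bax fell. Between Fam134bKO and WT myoblasts, 2 of 9 passed, beside 15.8% of all genes, with Sesn2 and Trp53inp1 higher in the knockout. The change on differentiation differed between genotypes for 1 of 9 genes, Zmat3, beside 3.45% of all genes. In myotubes, 5 of 9 genes passed the same threshold between genotypes, beside 23.4% of all genes, and nothing is read from that count because that comparison chose the group.

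**Figure D1:**
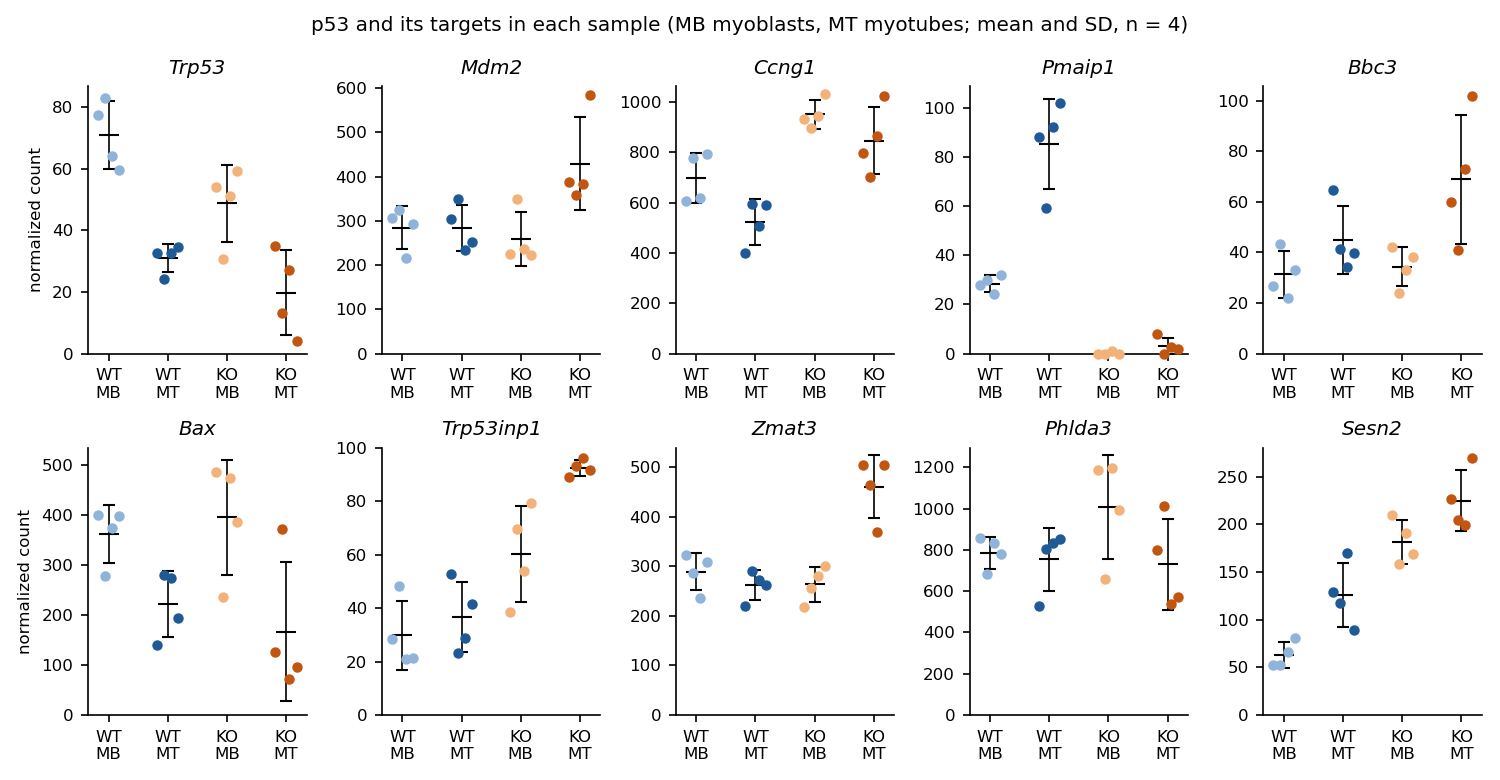
Normalized counts (linear axes from 0) of Trp53 and 9 p53 target genes in each of 16 samples, with points for samples, short bars for the mean and whiskers for the SD (n = 4; the lower whisker stops at 0). Pmaip1 lies at or near 0 in both Fam134bKO groups, while Trp53inp1 and Sesn2 lie higher in Fam134bKO than in WT samples of the same stage, apart from 1 overlap in Trp53inp1 myoblasts.

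Trp53 transcripts were most abundant in WT myoblasts. Its normalized counts were 77.5, 82.9, 64.0 and 59.7 in WT myoblasts, 32.8, 24.3, 32.5 and 34.7 in WT myotubes, 54.2, 30.7, 51.2 and 59.2 in Fam134bKO myoblasts, and 34.9, 13.1, 26.99 and 3.996 in Fam134bKO myotubes. All WT myotube samples lay below all WT myoblast samples, and the 2 lowest values of all belonged to the shallow Fam134bKO myotube libraries, where they rested on 9 and 2 reads. Trp53 fell by 1.17 on the log2 scale in WT cells (SE 0.42, adjusted p = 0.0478) and by 1.57 in Fam134bKO cells (SE 0.42, adjusted p = 0.00630). Both calls were fragile: the first was lost when any of 11 single samples was left out (adjusted p up to 0.106 over all alternatives), and the second was lost without the 2 shallow libraries, where Trp53 differed by -0.61 with an adjusted p of 0.1004. Between genotypes, Trp53 differed by -0.56 in myoblasts (SE 0.42, adjusted p = 0.427). In myotubes the difference was -0.96, and -0.01 without the shallow libraries. Of the stretches of 31 bases at the ends of Trp53 transcripts, 4.95% occur in another gene.

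Mdm2, the main inhibitor of p53, was level in WT cells and higher in knockout myotubes. It measured 305, 325, 215 and 293 normalized counts in WT myoblasts and 303, 349, 233 and 253 in WT myotubes. In Fam134bKO cells it measured 224, 350, 237 and 223 in myoblasts and 388, 357, 384 and 585 in myotubes. Every Fam134bKO myotube sample lay above every sample of the other 3 groups, although the lowest of them exceeded the highest other sample by little. Mdm2 rose on differentiation of Fam134bKO cells by 0.73 (SE 0.20, adjusted p = 0.00731), while in WT cells its difference was 0.00 (95% interval -0.41 to 0.41). The 2 changes differed by 0.73, which did not pass the test (SE 0.28, adjusted p = 0.166). In myoblasts the genotypes differed by -0.15 (adjusted p = 0.695), and in myotubes by 0.58.

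Ccng1 encodes cyclin G1, a target that feeds back on p53 through MDM2. Its values were 605, 777, 617 and 794 in WT myoblasts, 400, 594, 509 and 592 in WT myotubes, 933, 896, 944 and 1033 in Fam134bKO myoblasts, and 797, 703, 865 and 1023 in Fam134bKO myotubes. Fam134bKO samples lay above WT samples at both stages without overlap. The difference in myoblasts, 0.45 (SE 0.16), just missed the threshold (adjusted p = 0.0636), and it passed under 8 of the alternatives, among them the fit restricted to these 2 groups. In WT cells Ccng1 was lower in myotubes by 0.42, which did not pass either (adjusted p = 0.0665), and in myotubes the genotypes differed by 0.70.

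Pmaip1, whose value in myotubes chose the group, was also nearly absent from Fam134bKO myoblasts. It encodes NOXA, a BH3-only protein that neutralizes the survival protein MCL1. Pmaip1 measured 27.7, 29.9, 24.0 and 32.1 normalized counts in WT myoblasts and 88.1, 59.4, 92.0 and 102 in WT myotubes. In Fam134bKO myoblasts it was listed at 0 in 3 samples and at 0.868, a single read, in the other, and in Fam134bKO myotubes it measured 7.75, 0, 2.70 and 1.998. Thus, the 4 WT myoblast libraries held 121 reads of Pmaip1 and the 4 Fam134bKO myoblast libraries held 1. The ratio of 134 after scaling for depth rests on that 1 read and is a description only. The difference in myoblasts was -4.65 on the log2 scale (SE 0.49), and between -5.68 and -2.68 over the alternatives, the smallest with a pseudocount of 5.

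In myotubes, where Pmaip1 was chosen for its value, 370 WT reads stood against 12 Fam134bKO reads, a ratio of 23.6 after scaling for depth. Its log2 difference of -4.75 was the second lowest of all tested genes, between Cnr1 at -5.42 and Mgl2 at -4.65. On differentiation of WT cells, Pmaip1 was higher in myotubes by 1.53, with no overlap between stages. The knockout myotubes held 8, 0, 3 and 1 reads against 0, 0, 1 and 0 in knockout myoblasts, too few to measure a change with stage. The annotated exons of Pmaip1 overlap no other gene, and the last 500 bases of its transcripts share no stretch of 31 bases with another gene.

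Bbc3 encodes PUMA, the other BH3-only protein of the group, which binds all the main survival proteins of the BCL2 family. It measured 26.8, 43.4, 22.02 and 33.0 in WT myoblasts, 64.8, 41.4, 34.4 and 39.6 in WT myotubes, 42.0, 24.1, 33.0 and 38.4 in Fam134bKO myoblasts, and 60.03, 40.9, 72.9 and 102 in Fam134bKO myotubes. The ranges of the 4 groups overlapped. Bbc3 rose on differentiation of Fam134bKO cells by 0.94 (SE 0.30, adjusted p = 0.0186), a call that was lost without Fam134bKO myoblasts replicate 2 (adjusted p = 0.0599), without Fam134bKO myotubes replicate 4 (adjusted p = 0.0642) or after removal of a trend with GC content (adjusted p = 0.0595). The genotypes differed in Bbc3 by 0.15 in myoblasts (95% interval -0.47 to 0.76, adjusted p = 0.814), so that in the same myoblasts in which Pmaip1 was nearly undetected Bbc3 showed no detectable difference.

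Bax encodes the protein that forms the pores through which cytochrome c leaves mitochondria. Its values were 399, 277, 374 and 397 in WT myoblasts, 141, 279, 274 and 193 in WT myotubes, 485, 235, 474 and 385 in Fam134bKO myoblasts, and 125, 372, 72.0 and 95.9 in Fam134bKO myotubes. Fam134bKO myotubes replicate 2 lay far above the other samples of its group. Bax fell on differentiation of Fam134bKO cells by 1.496 (SE 0.36, adjusted p = 0.00287), and by 1.99 without the 2 shallow libraries. In WT cells it was lower by 0.74, which did not pass the test (adjusted p = 0.142), and the 2 changes were not distinguishable (difference -0.75, SE 0.51, adjusted p = 0.467). A second annotated gene, Gm45808, overlaps exons of Bax on the same strand, and 17.1% of the stretches of 31 bases at the ends of Bax transcripts occur in another gene, so reads from there may not have been counted.

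Bax and Phlda3 deviated together from sample to sample within groups. In 13 of 16 samples, Phlda3 lay to the same side of its group mean as Bax. Bak1, the other pore-forming protein of the family, did so in 14 of 16 samples, and Casp8, the initiator caspase of death receptors, in 13. Over the other 10766 tested genes the median was 8 samples, and 5.69% of them reached at least 13. These genes were picked after the values were seen, and samples of one group share handling that the labels do not describe.

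**Figure D2:**
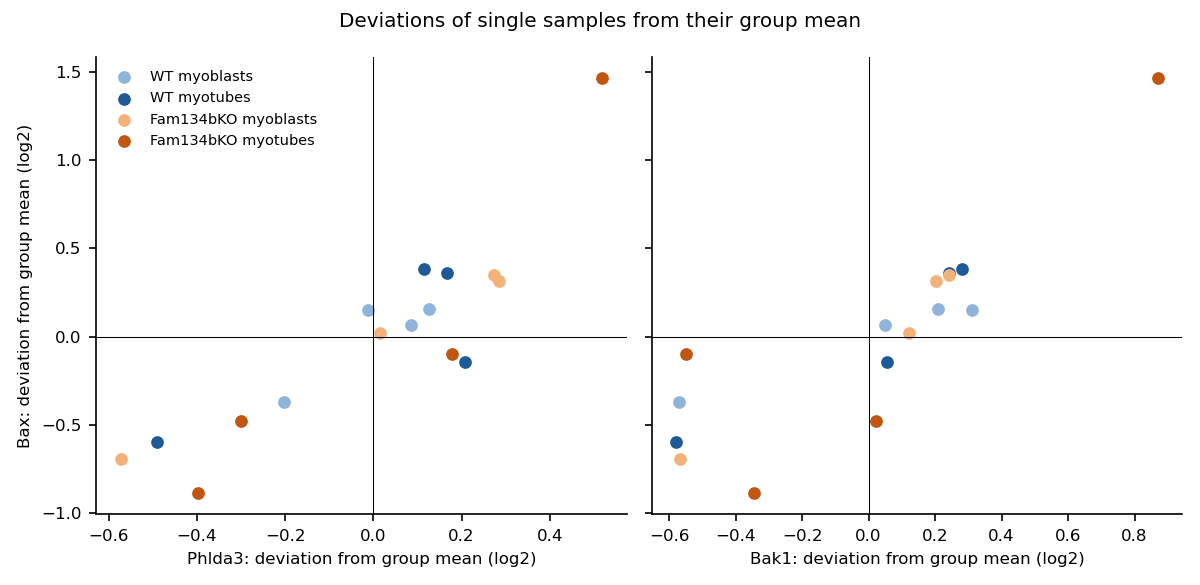
Deviation of Bax from its group mean in each of 16 samples (vertical axis, log2) against that of Phlda3 (left) and Bak1 (right), with colors for the 4 groups. Fam134bKO myotubes replicate 2 is at the upper right of both panels, with Bax at 1.47, Phlda3 at 0.52 and Bak1 at 0.87.

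Phlda3 encodes a PH-domain protein that competes with AKT for membrane lipids. It measured 856, 682, 833 and 778 in WT myoblasts, 527, 802, 832 and 855 in WT myotubes, 1186, 659, 1195 and 992 in Fam134bKO myoblasts, and 799, 1013, 536 and 573 in Fam134bKO myotubes. The groups overlapped in every comparison and Phlda3 passed none of its tests. Its difference between genotypes in myoblasts was 0.32 (95% interval -0.13 to 0.78, adjusted p = 0.373), and its difference on differentiation was -0.08 in WT cells (adjusted p = 0.830) and -0.47 in Fam134bKO cells (adjusted p = 0.1004).

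Trp53inp1 encodes a stress protein that promotes p53 activity and also takes part in autophagy. Its values were 28.6, 48.2, 21.0 and 21.4 in WT myoblasts, 52.7, 23.4, 28.8 and 41.6 in WT myotubes, 38.5, 69.7, 53.8 and 79.3 in Fam134bKO myoblasts, and 89.1, 93.4, 96.3 and 91.9 in Fam134bKO myotubes. The genotypes overlapped by 1 sample in myoblasts and not in myotubes. In myoblasts Trp53inp1 was higher in the knockout by 1.02 (SE 0.29, adjusted p = 0.0195), a call that was lost without WT myoblasts replicate 3 or 4 or without Fam134bKO myoblasts replicate 2 or 4, with adjusted p up to 0.0797. In myotubes the difference was 1.38. Neither genotype passed the test on differentiation, with differences of 0.30 in WT cells (adjusted p = 0.493) and 0.66 in Fam134bKO cells (adjusted p = 0.0883).

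Zmat3 encodes a zinc finger protein that binds RNA and acts in splicing and mRNA stability downstream of p53. Its values were 322, 287, 237 and 309 in WT myoblasts, 221, 291, 273 and 263 in WT myotubes, 218, 257, 280 and 300 in Fam134bKO myoblasts, and 504, 464, 370 and 506 in Fam134bKO myotubes. Fam134bKO myotubes stood above the other 3 groups, which overlapped. Zmat3 rose on differentiation of Fam134bKO cells by 0.80 (SE 0.16, adjusted p = 0.000601), while its difference was -0.14 in WT cells (adjusted p = 0.573). The difference between these changes was 0.94 (SE 0.23, adjusted p = 0.0217). That call was lost without WT myoblasts replicate 1 or 4, without Fam134bKO myoblasts replicate 1, or without the 2 shallow libraries, where the difference was 0.86 with an adjusted p of 0.0640. Between genotypes, Zmat3 differed by -0.13 in myoblasts (adjusted p = 0.664) and by 0.81 in myotubes.

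Sesn2 encodes sestrin 2, which restrains the growth kinase complex mTORC1 and is activated by ATF4 as well as by p53. It measured 52.6, 52.1, 66.0 and 81.1 in WT myoblasts, 129, 118, 170 and 89.2 in WT myotubes, 210, 159, 191 and 169 in Fam134bKO myoblasts, and 227, 204, 200 and 270 in Fam134bKO myotubes. WT myoblasts lay below all other samples, and Fam134bKO myotubes above all WT samples. Sesn2 was 2.89-fold higher in Fam134bKO than in WT myoblasts on the log2(normalized count + 1) scale (difference 1.53, SE 0.20, adjusted p = 7.78e-06) and rose by 0.98 on differentiation of WT cells (SE 0.20, adjusted p = 0.00139). Both calls held under every alternative tried. In Fam134bKO cells the difference on differentiation was 0.30 (adjusted p = 0.259). The changes of the 2 genotypes were not shown to differ (difference -0.68, 95% interval -1.27 to -0.08, adjusted p = 0.216). In myotubes the genotypes differed by 0.85.

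**Figure D3:**
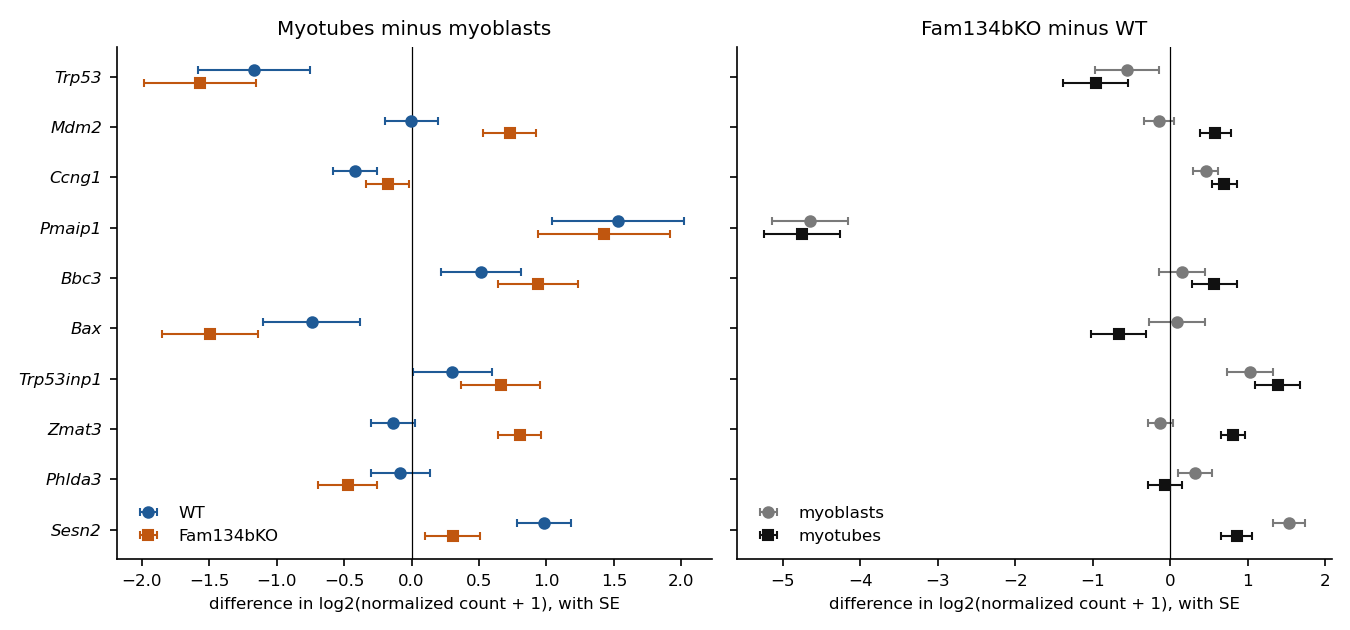
Differences of the 10 genes in mean log2(normalized count + 1), with whiskers for the SE, between myotubes and myoblasts of each genotype (left) and between Fam134bKO and WT cells at each stage (right). Pmaip1 lies at -4.65 and -4.75 on the right, while the other 9 genes lie between -0.96 and 1.53.

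In WT differentiation the 9 genes other than Pmaip1 had a median difference of -0.08, beside -0.01 over all tested genes. In Fam134bKO differentiation their median was 0.30 beside -0.02, and between genotypes in myoblasts it was 0.15 beside -0.01. In myotubes it was 0.58 beside -0.07, in the comparison that chose the group.

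To set these genes in their pathway, 72 other genes of the p53 network were examined, of which 62 passed the filter on low values. Trp73 and Cdkn2a, which encodes the ARF inhibitor of MDM2, had 0 reads in all 16 libraries, and Trp63 had at most 17 in any library. On differentiation, 12 rose and 5 fell in WT cells (12 and 8 after quantile normalization), beside 13.8% and 9.16% of all genes, and 16 rose and 5 fell in Fam134bKO cells, beside 17.3% and 16.1%. In Fam134bKO against WT cells, 8 were higher and 4 lower in myoblasts, beside 7.26% and 8.50%, and 16 were higher and 5 lower in myotubes, beside 9.74% and 13.7%. The median difference of the 62 genes was 0.08 in WT differentiation, 0.17 in Fam134bKO differentiation, 0.05 between genotypes in myoblasts and 0.10 in myotubes.

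Cdkn1a, the p21 gene with a promoter printed above, rose on differentiation of both genotypes and was lower in the knockout at both stages. It measured 1838, 1962, 1702 and 1634 in WT myoblasts, 5203, 5124, 6696 and 5255 in WT myotubes, 912, 1083, 1013 and 1105 in Fam134bKO myoblasts, and 2870, 3273, 3405 and 3529 in Fam134bKO myotubes. No comparison between these groups overlapped. Cdkn1a rose by 1.64 in WT cells (SE 0.15, adjusted p = 8.44e-08) and by 1.67 in Fam134bKO cells (SE 0.15, adjusted p = 3.09e-08), and the 2 changes differed by 0.03 (adjusted p = 0.964). In the knockout it was lower by 0.79 in myoblasts (adjusted p = 0.000614) and by 0.76 in myotubes (adjusted p = 0.000934). A second annotated gene overlaps exons of Cdkn1a on the opposite strand, and whether the counting used strand is not given in the sources used here.

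Among the p53 regulators, 14 of 17 were tested, and none passed between genotypes in myoblasts, beside 15.8% of all genes, where limma gave an unadjusted p under 0.05 to 1 of them and limma voom on the recovered reads called 1. Mdm4, the partner of MDM2, rose on differentiation of Fam134bKO cells from 68.1 ± 7.23 to 187 ± 89.8 normalized counts (SD, n = 4, difference 1.32, adjusted p = 0.000486), and in WT cells it differed by 0.59 (adjusted p = 0.102). Atm, the kinase that signals DNA breaks to p53, fell in WT cells by 1.29 (adjusted p = 0.0142). Chek1, a checkpoint kinase of replicating cells, fell by 2.81 in Fam134bKO cells (adjusted p = 0.000172) and was lower in Fam134bKO than in WT myotubes by 2.76 (adjusted p = 0.000374), where it rested on at most 5 reads per library.

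Of the growth arrest targets, 7 of 10 were tested, and besides Cdkn1a, Gadd45a, a stress sensor that slows the cell cycle, rose in both genotypes, by 1.73 in WT and 1.26 in Fam134bKO cells. The Fam134bKO stages overlapped, with 144 in myotubes replicate 4, a shallow library, against 164 in myoblasts replicate 2. WT myotubes ranged from 144 to 502. Gtse1, a protein of dividing cells that shuttles p53 out of the nucleus, fell by 3.15 on differentiation of Fam134bKO cells (adjusted p = 0.000647), from 67.7 ± 18.99 to 12.6 ± 13.8 normalized counts, and was lower in Fam134bKO than in WT myotubes by 1.80 (adjusted p = 0.0429). The genotypes overlapped in myotubes, where Gtse1 rested on 7, 22, 13 and 0 reads in the Fam134bKO libraries. Ptpn14, a phosphatase that restrains growth, fell in WT cells by 0.51 (adjusted p = 0.0370) and was higher in Fam134bKO than in WT myotubes by 0.48 (adjusted p = 0.0469).

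Of the cell death targets other than the group itself, 11 of 12 were tested, and the genotypes differed most in Perp and Trp53i11. Perp, a membrane protein of cell junctions that promotes cell death, held 5 reads in the 4 WT myoblast libraries and 188 in the Fam134bKO ones, a ratio of 33.9 after scaling for depth (exact 95% counting interval 14.3 to 106, adjusted p = 4.42e-09). In myotubes it held 7 reads in WT and 301 in Fam134bKO libraries, a ratio of 56.2 (interval 26.96 to 141, adjusted p = 1.24e-09). Trp53i11 moved the opposite way, with 81 reads in WT myoblasts and 2 in Fam134bKO myoblasts (ratio 44.9, interval 12.03 to 377, adjusted p = 5.63e-05) and 0 in all Fam134bKO myotube libraries. Against a floor of 3 reads per library, that makes Trp53i11 at least 1.39-fold lower in Fam134bKO than in WT myotubes.

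Other cell death targets moved with stage. Eda2r, a receptor of the tumor necrosis factor family, rose by 1.83 in WT cells (adjusted p = 0.000122) and by 1.78 in Fam134bKO cells (adjusted p = 8.29e-05), reaching 87.9 ± 34.8 and 86.3 ± 18.1 normalized counts. Steap3, a ferrireductase, rose by 1.07 in WT cells (adjusted p = 0.0352) and 2.27 in Fam134bKO cells (adjusted p = 4.66e-05), and was higher in Fam134bKO than in WT myotubes by 1.48 (adjusted p = 0.00456). Aen, a nuclease, was lower in Fam134bKO than in WT myoblasts by 1.20 (adjusted p = 0.00573) and not in myotubes (-0.03, adjusted p = 0.953), and the difference between the stages, 1.17, did not pass the test (adjusted p = 0.129).

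Of the repair, redox and metabolism targets, 15 of 17 were tested, and all that passed between genotypes were higher in the knockout, 4 in myoblasts, beside 7.26% of all genes, and 4 in myotubes, beside 9.74%. Ephx1, an epoxide hydrolase, measured 63.9 ± 27.1 in WT and 282 ± 89.5 in Fam134bKO myoblasts (difference 2.19, adjusted p = 1.22e-05), and 87.6 ± 23.7 against 481 ± 128 in myotubes (difference 2.45, adjusted p = 6.01e-06). Exons of Ephx1 overlap Gm36961 on the same strand. Sesn1, the sestrin most closely related to Sesn2, and Fdxr, the mitochondrial ferredoxin reductase, were also higher in the knockout at both stages, Sesn1 by 0.70 and 1.13 and Fdxr by 1.13 and 1.02 in myoblasts and myotubes. Ak1, an adenylate kinase of muscle, rose from 379 ± 29.5 to 669 ± 9.32 on differentiation of WT cells (difference 0.82, adjusted p = 7.54e-05) but stood at 694 ± 35.6 in Fam134bKO myoblasts and 719 ± 42.5 in Fam134bKO myotubes, and its change differed between genotypes by -0.77 (adjusted p = 0.0163). Tigar, which lowers glycolytic flux, fell in WT cells by 0.86 (adjusted p = 0.0110).

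Of the secreted and signalling targets, 15 of 16 were tested. In the knockout, 2 were higher and 1 lower in myoblasts, beside 7.26% and 8.50% of all genes, and 4 were higher and 1 lower in myotubes, beside 9.74% and 13.7%. Igfbp3, a binding protein of insulin-like growth factors, rose on differentiation from 3.79 ± 1.54 to 53.7 ± 22.6 in WT cells (difference 3.48) and from 1.25 ± 1.59 to 54.8 ± 26.8 in Fam134bKO cells (difference 4.76). Igfbp3 reached the filter of 10 normalized counts in myotubes only. Its rises are therefore described without a test, although the counts of pathway genes that rose include it. Sulf2, an extracellular sulfatase, reached 81.9 ± 15.5 in WT and 289 ± 78.9 in Fam134bKO myotubes, and its change on differentiation was larger in the knockout by 1.77 (SE 0.34, adjusted p = 0.00367). Exons of Sulf2 overlap Ncoa3 on the opposite strand. Gdf15, a stress-induced cytokine, rose from 7.55 ± 5.13 to 26.5 ± 9.05 in WT cells (difference 1.81, adjusted p = 0.00325) and already measured 27.3 ± 5.53 in Fam134bKO myoblasts, where it was higher than in WT myoblasts by 1.90 (adjusted p = 0.00224). Ckap2, a spindle protein, fell by 2.62 on differentiation of Fam134bKO cells (adjusted p = 0.000195).

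Of the 62 genes, 9 passed between genotypes at both stages, beside 8.85% of all tested genes. They were 9 of the 12 that passed in myoblasts and 9 of the 21 that passed in myotubes, where the shares over all genes were 56.2% and 37.8%. All 9 differed in the same direction at both stages, as did 97.8% of all genes that passed at both. Perp and Trp53i11, which each reached the filter in a single genotype, are among the 9, and nothing is read from their part in these counts.

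**Figure D4:**
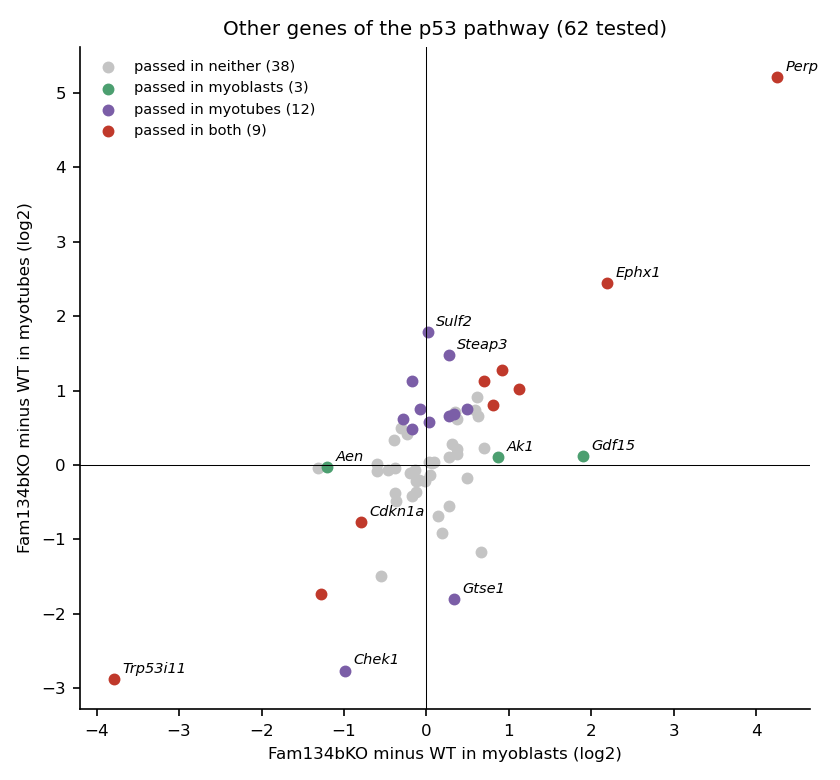
Difference between Fam134bKO and WT cells in myoblasts (horizontal) and in myotubes (vertical) for 62 tested genes of the p53 pathway outside the group, in mean log2(normalized count + 1). The 9 genes that passed the test at both stages, Perp and Trp53i11 among them, lie in the upper right and lower left, and 38 genes that passed at neither stage surround the origin.

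Because Pmaip1, Bbc3 and Bax act through the BCL2 family, its other members were described next. Of 15 listed, 12 were tested. In the knockout, 1 was higher and 2 were lower in myoblasts, beside 7.26% and 8.50% of all genes, and 2 were higher and 0 lower in myotubes, beside 9.74% and 13.7%. Bcl2l1 (BCL-XL) and Mcl1, survival proteins, passed no test, and Mcl1, the partner of NOXA, measured 260 ± 30.8, 274 ± 19.4, 239 ± 34.4 and 243 ± 25.3 normalized counts in WT myoblasts, WT myotubes, Fam134bKO myoblasts and Fam134bKO myotubes (difference between genotypes -0.13 in myoblasts, adjusted p = 0.659, and -0.18 in myotubes, adjusted p = 0.439). Bcl2l11, the BH3-only protein BIM, was lower in Fam134bKO than in WT myoblasts by 0.98 (SE 0.27, adjusted p = 0.0157), with 46.1, 41.5, 62.0 and 45.5 normalized counts against 30.6, 21.6, 15.6 and 31.7. It rose on differentiation of Fam134bKO cells by 0.72, just within the threshold (adjusted p = 0.0478) and with overlap between the stages. In myotubes the genotypes differed in Bcl2l11 by -0.06 (adjusted p = 0.903).

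Bid, a BH3 protein that links death receptors to mitochondria, was higher in the knockout at both stages. It measured 63.7, 99.3, 105 and 118 in WT and 163, 307, 134 and 138 in Fam134bKO myoblasts (difference 0.89, adjusted p = 0.0418), and 31.9, 65.7, 43.7 and 38.6 against 120, 137, 184 and 79.9 in myotubes (difference 1.503, adjusted p = 0.000774). Its exons overlap Bcl2l13 on the opposite strand. Bmf, which senses detachment from the matrix, rose in Fam134bKO cells from 3.21 ± 1.12 to 18.6 ± 3.41 (difference 2.25) and was higher in Fam134bKO than in WT myotubes by 2.14, but not shown to differ in myoblasts (adjusted p = 0.346). Bmf reached the filter of 10 normalized counts in Fam134bKO myotubes only. Its differences from that group are therefore described without a test, although the counts of BCL2 genes include it. Bnip3, a receptor for the autophagy of mitochondria, rose by 2.10 in WT cells (adjusted p = 2.99e-06) and by 1.77 in Fam134bKO cells (adjusted p = 1.31e-05), and passed between genotypes at neither stage (adjusted p = 0.809 and 0.604). Its relative Bnip3l was lower in Fam134bKO than in WT myoblasts by 0.44 (adjusted p = 0.0487). Bok, a pore-forming relative of Bax, fell in both genotypes, by 1.03 in WT (adjusted p = 0.00279) and 0.80 in Fam134bKO cells (adjusted p = 0.0105).

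Downstream of the pores, 11 of 12 apoptosome and caspase genes were tested and none passed between genotypes in myoblasts, beside 15.8% of all genes. Limma gave an unadjusted p under 0.05 to 2 of them, and limma voom on the recovered reads called 0. In myotubes Casp9, the caspase of the apoptosome, was higher in the knockout by 1.03 (adjusted p = 0.00193). Birc5 (survivin), an inhibitor of cell death made by dividing cells, fell by 1.24 in WT (adjusted p = 0.000723) and fell by 2.16 in Fam134bKO cells (adjusted p = 4.74e-07), and was lower in Fam134bKO than in WT myotubes by 1.31 (adjusted p = 0.000395).

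Sesn2 and Pmaip1 can also be activated by ATF4 and CHOP, the transcription factors of the integrated stress response, and 7 genes of that response were set beside them with earlier results of these data known. In Fam134bKO against WT myoblasts, 4 of the 7 were higher, beside 7.26% of all genes. Trib3, a pseudokinase induced by CHOP, measured 132 ± 12.9 in WT and 798 ± 102 in Fam134bKO myoblasts (difference 2.58, adjusted p = 9.35e-11). Chac1 (1.45, adjusted p = 4.59e-06), Asns (1.502, adjusted p = 1.70e-07) and Ddit3, the gene for CHOP (1.80, adjusted p = 1.32e-07), were higher as well. The other 3 did not pass, among them Atf4 itself (0.16, adjusted p = 0.711) and Atf3 (1.02, adjusted p = 0.0913). Sesn2 was higher and Pmaip1 lower in the same samples. In myotubes, Ddit3 was higher in the knockout by 1.02 (adjusted p = 0.000295), Atf4 was lower by 0.77 (adjusted p = 0.0140), and Trib3, Chac1 and Asns differed by 0.29, -0.05 and -0.09, with adjusted p from 0.205 to 0.871. The change on differentiation differed between genotypes for Trib3 (-2.29), Asns (-1.59) and Chac1 (-1.50), with adjusted p from 1.39e-06 to 0.00128.

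The genes whose pattern over the 16 samples was most like that of Pmaip1 were Cd200 (Pearson's r of log2 values 0.983), Fam167a (0.968), Chchd10 (0.957), Mboat2 (0.957) and Lmbr1 (0.957). Fam167a and Mboat2 were listed at 0 in all 4 Fam134bKO myoblast samples, with means of 10.6 and 12.2 normalized counts in WT myoblasts and 25.2 and 50.0 in WT myotubes. Cd200, a membrane glycoprotein, measured 185 ± 16.03 in WT myoblasts, 370 ± 101 in WT myotubes, 9.84 ± 3.42 in Fam134bKO myoblasts and 33.6 ± 12.8 in Fam134bKO myotubes. The genes most like Trp53 were Phf19 (0.947), C330027C09Rik (0.944), Mybl1 (0.932), Twf1 (0.924) and Tex30 (0.920). Phf19, a subunit of a Polycomb complex, measured 22.2 ± 0.665 in WT myoblasts, 10.6 ± 1.85 in WT myotubes, 15.5 ± 5.97 in Fam134bKO myoblasts and 3.50 ± 2.97 in Fam134bKO myotubes. These coefficients describe points that fall into 4 groups and carry no test.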

How the data were processed

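Gene expression was measured by Digital mRNA-seq (single-end reads, Illumina NovaSeq) in 16 samples, 4 in each of 4 groups, and grouped by the genotype and stage in the sample titles. Per the submitters' notes and methods, the authors demultiplexed with bcl2fastq, trimmed reads, aligned them to mm10 with STAR 2.6.0a and counted reads per gene with HTSeq. The deposited values are log2 of a normalized count plus 1. The tool of that normalization, the annotation release and the strand setting are not given in the sources used here. The values of every sample were whole multiples of 1 step (100% within a tolerance of 0.01), so reads per library were recovered from them, 1484750 to 3287461 in all. Intervals on reads cover counting error only, and levels were not compared between genes. A count test was not used on these log2 values: limma 3.58.1 (R 4.3.3, trended variance, 4 group means, no covariate) was fitted to all 16 samples for the 10767 genes with at least 10 normalized counts in at least 4 samples, with Benjamini-Hochberg adjustment over them and a threshold of 0.05. Two-sided tests compared stages within genotype, genotypes within stage, and the difference of these changes. In simulated data for the comparison of myotubes, with 200 of 10767 genes changed, 61.5% of 2-fold and 91.5% of 4-fold changes were called, with no wrong sign. Of the unchanged genes, 5 and 12 were called. Apart from read depth, the simulation gave all groups the same spread for a gene. It set that spread below the measured one before counting noise was added, so the shares may be too high for genes with many reads. The measured Fam134bKO myotubes varied more than the other groups, so these shares may not hold for them. The members and gene lists were chosen with earlier results of these data known. Besides the 10 genes, Cdkn1a, Mdm4, Bcl2l1, Mcl1, Bcl2l11 and the targeted gene were always named, then up to 3 genes per direction and comparison with the largest change among those that passed without overlap, from the other pathway genes and from the BCL2 family with the apoptosome genes, and the 5 genes most correlated with Pmaip1 and with Trp53. One gene that this rule names is not reported here. The named genes of the ATF4 list, and Casp8, Bak1, Gadd45a, Sesn1 and Fdxr, were picked after their values were seen. Positions come from GENCODE M21 (GRCm38), promoters from RefSeq. Alternatives covered pseudocount, filter, scaling, threshold, model and samples left out, and replicate numbers were checked for pairing: deviations of same-numbered samples correlated by 0.0330 on average over 24 pairs, 10 of them over 0.1, so the numbers were not taken to pair the samples.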

Additional observations from a re-analysis of the deposited data

Results flagged for a closer look

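With 4 samples to a group, a sample stands apart by Dixon's criterion in about 1 in 20 groups by chance. Among the 10 genes, Mdm2 in Fam134bKO myoblasts replicate 2 measured 350 normalized counts and in Fam134bKO myotubes replicate 4 measured 585, both above the rest of their groups, and Phlda3 in WT myotubes replicate 1 measured 527, below the rest. Among the other named genes, single samples stood above their group in Cdkn1a (6696, WT myotubes replicate 3), Mdm4 (191) and Steap3 (104) in WT myotubes replicate 1, Gdf15 (35.6, Fam134bKO myoblasts replicate 3), Bid (307, Fam134bKO myoblasts replicate 2) and Casp9 (148, Fam134bKO myotubes replicate 4). Single samples stood below their group in Ptpn14 (223, WT myotubes replicate 4), Ak1 (655, Fam134bKO myotubes replicate 4) and Bok (177, WT myoblasts replicate 1).

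The change on differentiation differed between Fam134bKO and WT cells, by the interaction term of limma, for Zmat3 (0.94 on the log2 scale, adjusted p = 0.0217) and Sulf2 (1.77, adjusted p = 0.00367), with the larger rise in the knockout, and for Ak1 (-0.77, adjusted p = 0.0163), Trib3 (-2.29, adjusted p = 1.39e-06), Chac1 (-1.50, adjusted p = 0.00128) and Asns (-1.59, adjusted p = 7.18e-05). Ak1 rose in WT cells, and Trib3, Chac1 and Asns rose in WT cells and fell in Fam134bKO cells. All 4 samples of each group entered these estimates.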

How the results depend on the processing

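No called difference of a named gene changed sign under any of the alternatives, and of 6440 values of single genes under alternatives, 6181 kept their side of the threshold, 149 lost a call and 110 gained one. Counts are of the 9 genes other than Pmaip1 and of the 62 other pathway genes. Between genotypes in myoblasts, the counts of the group are of all 10 genes, with 3 over the threshold, 2 of them other than Pmaip1. Pmaip1 chose the group and reached the filter in WT samples only, so nothing is read from its part in these counts. In WT differentiation, the 2 of 9 became 1 with a pseudocount of 0.5, without a filter, at an adjusted p under 0.01 or with a log2 change of at least 1, and 4 without the shallow Fam134bKO myotubes replicates 2 and 4, whose removal narrows the shared spread. A log2 change of at least 1 left 2 of 5 genes in Fam134bKO differentiation and 1 of 5 between genotypes in myotubes. Sample weights raised the calls over all 10767 genes from 2474 to 4683 in WT differentiation, from 1697 to 3773 between genotypes in myoblasts and from 371 to 1221 for the interaction, and gave 5 in place of 3 genes of the group between genotypes in myoblasts and 4 in place of 1 for the interaction, which was 0 at either stricter threshold and 0 without the shallow libraries. Of the other pathway genes, the 17 of WT differentiation became 28 in a fit of these samples alone (3334 calls over all genes), 31 with sample weights, 8 at an adjusted p under 0.01 and 9 with a log2 change of at least 1. Fits of only the samples compared raised the calls over all genes from 1697 to 2656 between genotypes in myoblasts. They lowered them from 3591 to 2755 in Fam134bKO differentiation and from 2521 to 1565 between genotypes in myotubes. The 12 between genotypes in myoblasts became 23 with sample weights and 7 with the log2 threshold, the 21 in myotubes became 12 at either stricter threshold, and the 2 of the interaction became 11 with sample weights and 1 at either stricter threshold. Leaving out 1 sample at a time gave 1 to 3, 4 to 6, 2 to 4, 4 to 6 and 0 to 1 genes of the group in the 5 comparisons, and 10 to 20, 18 to 27, 10 to 13, 16 to 24 and 2 to 5 other pathway genes, in the order WT differentiation, Fam134bKO differentiation, genotypes in myoblasts, genotypes in myotubes and interaction. With the replicate number as a block the counts were 2, 5, 4, 5 and 1 for the group and 15, 23, 12, 20 and 2 for the other genes, and the samples share only a number. The causes of these moves were not tested unless stated. The removal of the shallow libraries and of the GC trend was chosen after seeing the data. Depth limits Pmaip1, Perp, Trp53i11 and Chek1, which rest on few reads in one genotype, Gtse1 in Fam134bKO myotubes, and Trp53 in the shallow libraries.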
